A study of Drosophila melanogaster with 12 samples.

Results

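Amyrel and tobi are a pair of Drosophila melanogaster genes for enzymes that split sugar chains, and they are described here across the 2 diets and 2 tissues of the study. They were chosen by name, as every probe set that the platform annotation gives to Amyrel or tobi alone. That left 1 probe set each, so 2 of the 13647 probe sets with a single gene symbol, or 2 of 11982 named genes. Signal was measured on Affymetrix 3' arrays in adult w1118 females, a laboratory strain with white eyes that all groups share. The 4 groups were whole flies on unmodified holidic food, whole flies on glucose-enriched (100 g/L) food, midguts on unmodified food and midguts on glucose-enriched food. All flies were held for 10 days from eclosion at 25 °C and were 10 days old, each group had 3 arrays, and a sample pooled 5 whole flies or 10 midguts. Holidic food is fully defined and synthetic, and larvae had grown on cornmeal. Whether the samples within a group were separate cultures is not stated, so p-values cover the spread among these samples alone, which may be technical.

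Flies digest starch in the midgut in steps. Amylases cut the long chains, and maltases and other alpha-glucosidases release glucose from the short ones. Amyrel encodes a diverged member of the alpha-amylase family. tobi, named as a target of brain insulin, encodes an alpha-glucosidase whose transcript is known in flies to respond to insulin-like peptides and adipokinetic hormone, to be raised by dietary protein and to be lowered by dietary sugar. Glucose in food is also known to repress digestive amylases in flies, and the Mondo and Mlx sugar sensor, its target sugarbabe and activin signalling act in that response.

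The dissected tissue was checked against marker genes. Of the midgut markers, 7 of 10 were measured and all 7 passed as higher in midgut on each diet. All 10 measured ovary and egg markers, all 8 measured eye and muscle markers and 7 of 9 measured fat body markers passed as lower. Over all probe sets, 14.9% passed as higher and 40.6% as lower on unmodified food, and 11.8% and 41.2% on glucose. Malpighian tubule markers were called higher in midgut for 4 of 5 measured genes and lower for 1. The part of tubule RNA in the midgut values was not tested. Array medians lay between 3.43 and 3.47 in midgut and between 4.04 and 4.15 in whole fly on the log2 scale, and arrays of a group correlated at 0.989 to 0.994 across probe sets. Both midgut arrays numbered 1 carried more of some ovary transcripts than the others of their group. In glucose replicate 1 the oogenesis gene orb read 6.32 against 2.57 and 2.02 on the other glucose arrays, and the summed signal of the 10 ovary and egg markers was 10.36 against 7.30 and 6.71, with 6.71 to 8.24 on the unmodified arrays (log2 of the sum). In unmodified replicate 1 the oogenesis gene Marf1 read 4.35 against 2.21 and 2.42, with 5.62 on glucose replicate 1. The list as a whole did not set unmodified replicate 1 apart. Its summed signal there was 7.46, between 6.71 on unmodified replicate 2 and 8.24 on unmodified replicate 3. Vm26Aa, of the same list, read lower on unmodified replicate 1 than on those arrays, where it read 4.53 and 4.99.

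Both genes gave more signal in midgut than in whole fly. On unmodified food Amyrel read 5.59, 6.13 and 6.38 on the 3 midgut arrays and 4.15, 3.82 and 3.55 on the whole fly arrays (log2 signal). On glucose it read 4.33, 4.47 and 4.63 in midgut and 3.24, 3.53 and 3.42 in whole fly. The tissues did not overlap on either diet, and the order of the group means was midgut unmodified, midgut glucose, whole fly unmodified and whole fly glucose. In whole flies Amyrel was dim, with 39.8% to 50.4% of all probe sets reading lower on the same array, and the table gives no detection call or background level against which to judge it.

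tobi was bright throughout. On unmodified food it read 11.72, 11.25 and 10.83 in midgut and 9.76, 9.74 and 8.89 in whole fly. On glucose it read 9.86, 10.89 and 10.60 in midgut and 8.06, 9.63 and 7.88 in whole fly. At least 82.8% of probe sets read lower than tobi on each of the 12 arrays, and its tissues did not overlap on either diet. The order of the group means was the same as for Amyrel, but neighbours in it overlapped between the diets within each tissue.

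**Figure D1:**
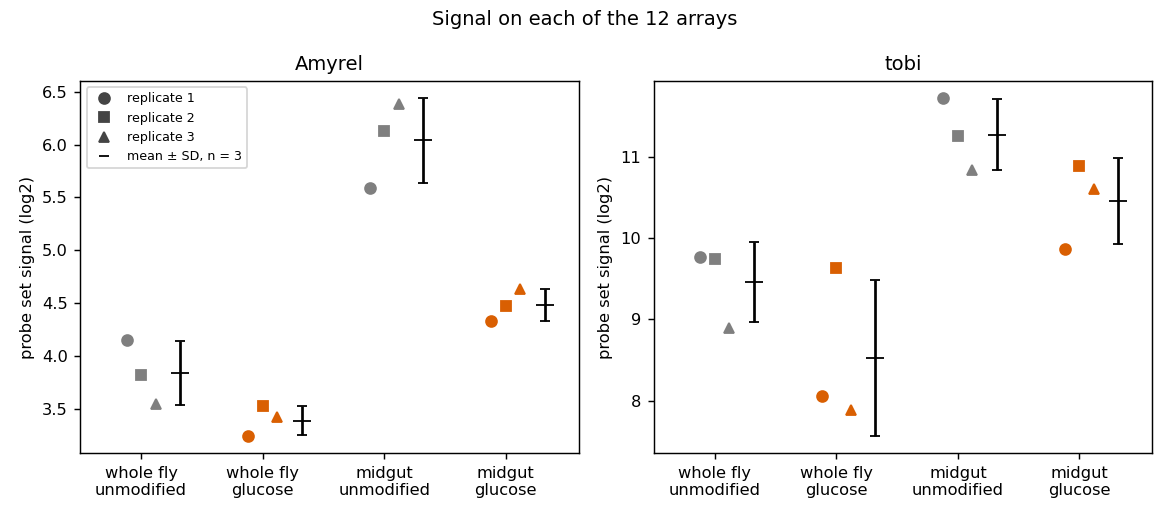
Log2 probe set signal of Amyrel (left) and tobi (right) on each of the 12 arrays, by tissue and diet; grey marks are unmodified food, orange marks are glucose, the marker shape gives the replicate number and the black bar is the mean ± SD of 3 arrays. For Amyrel the 3 midgut glucose arrays (4.33 to 4.63) lie below the 3 unmodified ones (5.59 to 6.38), while for tobi the diets overlap in both tissues.

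The first question was where the genes are expressed. On unmodified food the midgut signal exceeded that of whole fly by 2.20 for Amyrel (SE 0.20, limma adjusted p 5.85e-07) and by 1.81 for tobi (SE 0.43, adjusted p 0.00293), a 3.50-fold difference. On glucose the excess was 1.08 for Amyrel (SE 0.20, adjusted p 3.87e-04) and 1.93 for tobi (SE 0.43, adjusted p 0.00195). These contrasts were called for 55.5% of all probe sets on unmodified food and 53.0% on glucose, and in the direction of higher in midgut for 14.9% and 11.8% (40.6% and 41.2% were lower). The midgut arrays of either gene all read above the whole fly arrays, as did those of 18.9% of probe sets on unmodified food and 15.1% on glucose. Midgut is part of the whole fly, and in pooled tissue fewer cells of a type and less RNA per cell cannot be told apart.

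The size of the tissue difference moved with the scaling of the arrays, whose medians were lower in midgut. With each array centred on its median the excess on unmodified food was 2.81 for Amyrel and 2.42 for tobi, and on glucose 1.76 and 2.61. With quantile normalization it was 2.98 and 1.78 on unmodified food and 1.83 and 2.20 on glucose. Both genes stayed higher in midgut under each scaling. The median difference of all probe sets was -0.14 on unmodified food and -0.17 on glucose, and the share of calls that were higher in midgut on unmodified food went from 26.9% to 69.2% with centring and 54.2% with quantile normalization. On glucose those shares were 22.3%, 72.5% and 54.7%.

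The second question was what the glucose-enriched food did in the midgut. Amyrel went from 6.04 ± 0.40 on unmodified food to 4.48 ± 0.15 on glucose (SD, n = 3), a difference of -1.56 (SE 0.20, 95% interval -2.01 to -1.10), or 2.95-fold less signal. All 3 glucose arrays read lower than all 3 unmodified arrays, which was so for 5.34% of probe sets. Of 18769 probe sets 5 had a larger fall in mean and 9 a smaller p. Adjusted over all of them the limma p was 0.0941, above the threshold of 0.05, in a comparison where 0.00533% of probe sets were called.

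Same-numbered midgut arrays deviated together across probe sets. When that number entered the fit as a block, Amyrel passed (SE 0.12, limma adjusted p 0.0137), among 0.128% of probe sets called. Between arrays of the same number the Amyrel difference was -1.26, -1.66 and -1.75. It was -1.71 without both arrays numbered 1, of which glucose replicate 1 had the highest summed ovary signal in midgut. Without any 1 array it lay between -1.78 and -1.38. No adjusted p of those fits with fewer arrays was under 0.05.

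tobi in the midgut went from 11.27 ± 0.44 to 10.45 ± 0.53 (SD, n = 3), a difference of -0.82 (SE 0.30, 95% interval -1.50 to -0.14). It did not pass over all probe sets (limma adjusted p 0.783, or 0.387 with the block). The diets overlapped, since glucose replicate 2 at 10.89 read above unmodified replicate 3 at 10.83. Between same-numbered arrays the difference was -1.86, -0.37 and -0.23, lower in all 3 pairs, as was so for 15.5% of probe sets.

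The arrays numbered 1 set most of the tobi difference in midgut. They held its highest unmodified and its lowest glucose reading, and without both the difference was -0.30 (SE 0.19). Without glucose replicate 1 alone, the midgut array with the highest summed ovary signal, it was -0.53. No fat body marker was called for diet in midgut. All 9 measured genes of that list had lower means on glucose, 4 of them at an unadjusted p under 0.05, against 2.73% of all probe sets lower at that threshold. The list median was -0.25, against 0.00 for all probe sets. The 9 include Fbp1 at -0.02 (SE 0.11), Desat1 at -0.03 (SE 0.16), Mtp at -0.05 (SE 0.13) and Fbp2 at -0.09 (SE 0.11), all within their SE of 0. The summed signal of the 9 genes was 14.15 to 14.23 on the unmodified arrays and 13.69 to 14.03 on glucose, lowest on glucose replicate 1. The part of ovary or fat body RNA in the tobi value was not tested.

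**Figure D2:**
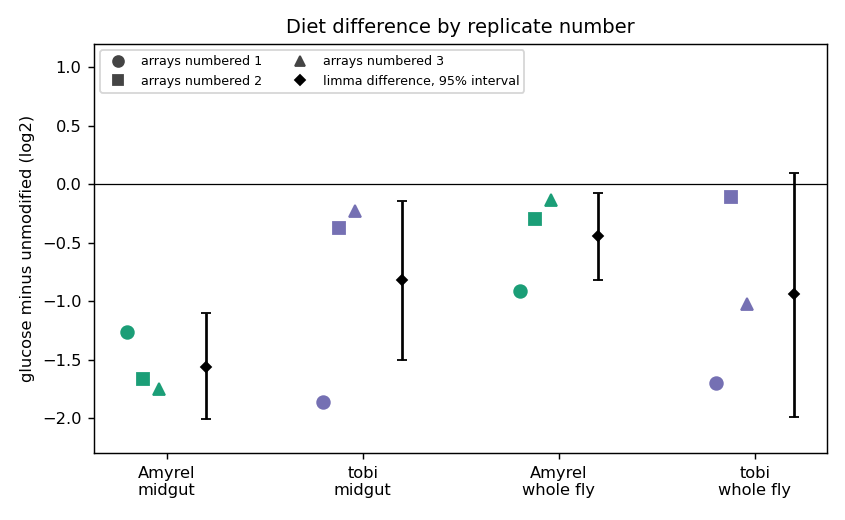
Difference in log2 signal between glucose and unmodified arrays of the same number (coloured marks, shape by number) for each gene and tissue, with the limma difference and its 95% interval over 6 arrays (black). Amyrel in midgut lies between -1.75 and -1.26 in every pair, while tobi in midgut is at -1.86 in the arrays numbered 1 and at -0.37 and -0.23 in the others.

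In whole flies neither gene passed the test over all probe sets, in a comparison where 3.11% of probe sets were called. Markers of other tissues differed in the same comparison: 6 of 8 eye and muscle genes were called higher on glucose (median 1.18) and 4 of 10 ovary and egg genes lower (median -0.77). The part of tissue make-up in the whole fly values was not tested. Amyrel stood at 3.84 ± 0.30 on unmodified food and 3.39 ± 0.14 on glucose (SD, n = 3), a difference of -0.44 (SE 0.16, 95% interval -0.82 to -0.07, limma adjusted p 0.164). The diets did not overlap, with the highest glucose array at 3.53 and the lowest unmodified array at 3.55. That held, in the lower direction, for 13.7% of probe sets. The arrays of both diets were free of overlap and lower on glucose in both tissues for 84 probe sets, 0.448% of all, of which Amyrel is 1. Its whole fly readings lay around or below the array median, and no detection call is given for them.

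tobi in whole flies went from 9.46 ± 0.49 to 8.52 ± 0.96 (SD, n = 3), a difference of -0.94 (SE 0.45, 95% interval -1.99 to 0.10, limma adjusted p 0.285). Glucose replicate 2, at 9.63, read within the unmodified range of 8.89 to 9.76, and the other glucose arrays read 8.06 and 7.88, below it. Without that array the difference was -1.50 (SE 0.27) and passed (adjusted p 0.0254), in a fit that called 1563 probe sets in place of 584. Without any other single array it lay between -1.23 and -0.62 and did not pass. The summed signal of the 7 midgut markers was 14.52 on glucose replicate 2 and 14.25 and 14.30 on the other glucose arrays. On the unmodified arrays it was 14.64, 13.92 and 14.42, where tobi read 9.76, 9.74 and 8.89. The part of midgut content in the tobi values was not tested.

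**Figure D3:**
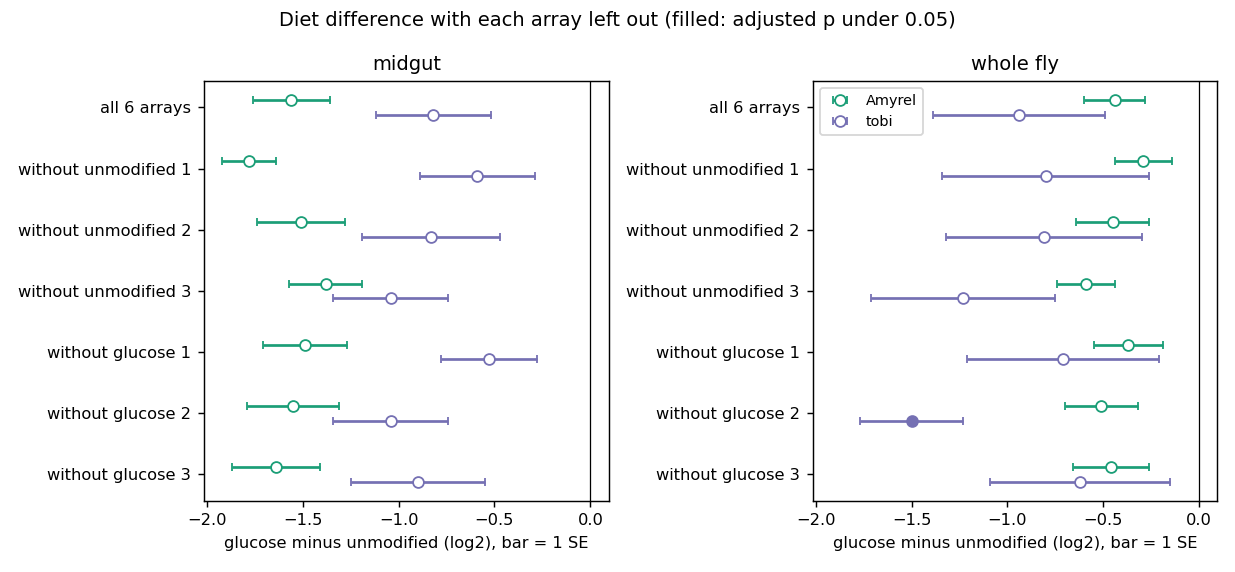
Difference in log2 signal between glucose and unmodified food for Amyrel and tobi, with all 6 arrays of a tissue and with each array left out in turn; bars are 1 SE and filled marks have an adjusted p under 0.05. Every difference is below 0, and 1 of them, tobi in whole fly without glucose replicate 2, is filled at -1.50.

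Averaged over both tissues, Amyrel fell on glucose by 1.0 on the log2 scale (SE 0.14, 95% interval -1.30 to -0.70), which is 2.0-fold less signal. It passed over all probe sets with a limma adjusted p of 0.0169, where 0.698% of probe sets were called and 0.197% were called lower. An exact permutation test of the diet labels within each tissue, two-sided over 400 assignments, gave p = 0.005, the smallest it can give. With midgut arrays exchanged only within same-numbered pairs, which leaves 160 assignments, the exact p was 0.0125, again the smallest possible. Without midgut glucose replicate 2 the adjusted p was 0.0568.

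The average for tobi was -0.88 (SE 0.31, 95% interval -1.55 to -0.22) and did not pass over all probe sets (limma adjusted p 0.174). The exact permutation test within tissues gave p = 0.04, and 0.0625 with the midgut pairs kept. Without both midgut arrays numbered 1 the average was -0.62 with an exact p of 0.1, and without whole fly glucose replicate 2 it was -1.16 with a limma adjusted p of 0.0262. Both genes were picked with results of these arrays known, so these p-values are not those of an independent choice. Within 1 tissue, 3 arrays against 3 cannot go below an exact p of 0.1.

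Whether the diet difference depends on the tissue was tested over all 12 arrays. For Amyrel the midgut difference minus the whole fly difference was -1.11 (SE 0.28, 95% interval -1.72 to -0.51), with an unadjusted p of 0.00167 and a limma adjusted p of 0.122, which did not pass. In this comparison 0.0426% of probe sets were called. The whole fly term rests on readings around the array median, for which no detection call is given. With the replicate block in midgut alone, where same-numbered arrays deviated together, the adjusted p was 0.0775. With the block in both tissues it was 0.0363, in a fit that called 3.99% of probe sets. For tobi the difference of differences was 0.12 (SE 0.61), with an interval from -1.21 to 1.45 that does not show equal responses.

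The related enzymes were read from lists of genes. Of the 3 amylase genes listed, Amyrel was the 1 with a probe set of its own. Neither Amy-p nor Amy-d had a probe set annotated to it alone, so these digestive amylases were not read here. All 10 maltase genes, which cut short glucose chains, were measured. In midgut none was called, 5 were lower at an unadjusted p under 0.05, against 2.73% of all probe sets, and the list median was -0.49, against 0.00 for all probe sets. Mal-A4, at -1.22 (SE 0.21), had the smallest p. Mal-A3 came next at -0.86 (SE 0.25) and then Mal-A6, which stood at -0.65 (SE 0.19). With the block 2 maltases were called, both lower, Mal-A4 and Mal-B1, where 0.128% of probe sets were called. In whole fly 1 was called, Mal-A4, which fell by 1.11 (SE 0.23, limma adjusted p 0.0467), where 1.80% of probe sets were called lower. The median of the list there was -0.25. Mal-B2 at 0.63 (SE 0.20) and Mal-A3 at -0.68 (SE 0.25) had the next smallest p-values and did not pass.

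The other glycosidases and the enzymes of glycogen and trehalose lay on both sides of 0. Of 13 listed genes 10 were measured, tobi among them, and none was called in midgut or whole fly. Their median difference was 0.09 in midgut and -0.06 in whole fly. In midgut tobi had the smallest p of the list, and CG9485 followed at 0.38 (SE 0.17) and Glys, the glycogen synthase gene, at 0.29 (SE 0.17). In whole fly the smallest p-values belonged to Tps1, which makes trehalose, the blood sugar of insects, at 0.79 (SE 0.17, limma adjusted p 0.0536), CG33080 at 0.48 (SE 0.12) and GCS1, which trims sugar chains on new proteins, at -0.40 (SE 0.14). Lysosomal mannosidases, which degrade mannose chains, had lower means on glucose in midgut for 7 of 7 genes. None was called, and the median was -0.48, against 0.00 for all probe sets. The 7 include beta-Man at -0.09 (SE 0.09). They also include LManIV, whose means of 3.56 on unmodified food and 2.66 on glucose lie around or below the array median. In midgut the 3 with the smallest p were LManI at -0.35 (SE 0.12), LManVI at -0.60 (SE 0.22) and LManIII at -1.20 (SE 0.53). In whole fly their median was 0.09, again with none called.

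**Figure D4:**
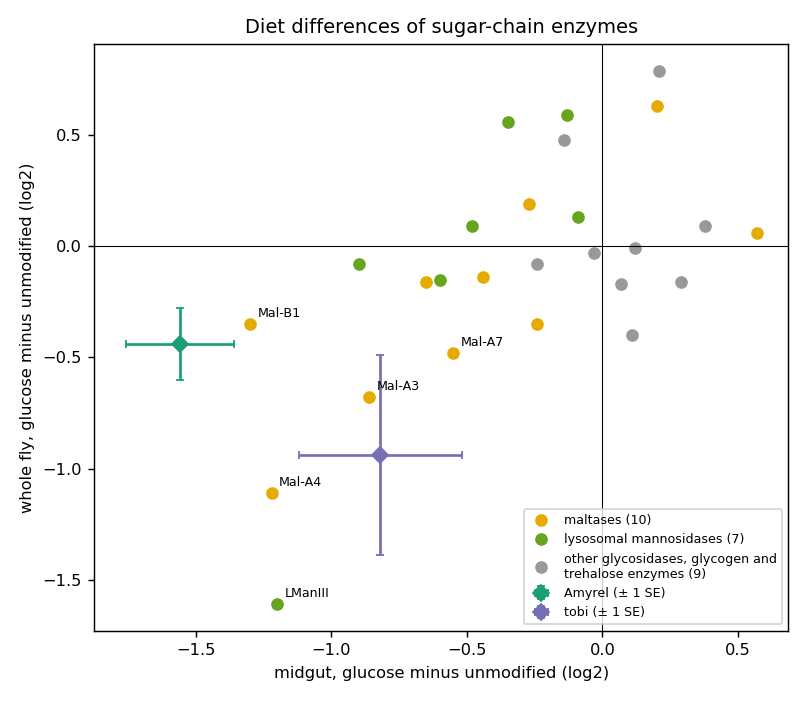
Difference in log2 signal between glucose and unmodified food in midgut (horizontal) and in whole fly (vertical) for 10 maltases, 7 lysosomal mannosidases, 9 other glycosidase, glycogen and trehalose genes, and Amyrel and tobi (diamonds with 1 SE). Amyrel lies farthest to the left of these genes at -1.56, with Mal-B1 at -1.30 and Mal-A4 at -1.22 next to it, and tobi lies at -0.82 and -0.94.

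Genes that act upstream in sugar sensing were all measured, 10 of 10. In whole fly 4 were called higher and 1 lower, where 1.32% of probe sets were called higher, and the median was 0.38. The repressor gene sug (sugarbabe) rose by 1.14 (SE 0.15, limma adjusted p 0.0334), bigmax, which encodes the Mlx partner of Mondo, rose by 0.58 (SE 0.09, adjusted p 0.0371), and babo, the activin receptor gene, fell by 0.83 (SE 0.14, adjusted p 0.0371). In midgut none was called and the median was 0.07. There sug stood at 0.70 (SE 0.22, adjusted p 0.713), bigmax at 0.38 (SE 0.15) and the activin ligand gene daw at 0.37 (SE 0.17).

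Of 14 listed genes of insulin and adipokinetic hormone signalling, the inputs known for tobi, 11 were measured. In whole fly 2 were called, both higher: the hormone gene Akh rose by 0.75 (SE 0.14, limma adjusted p 0.0395) and its receptor gene AkhR by 1.58 (SE 0.30, adjusted p 0.0418), where 1.32% of probe sets were called higher. Akt, a kinase gene of the insulin pathway, came next at 0.49 (SE 0.24) and did not pass. In midgut none was called and the median was -0.01. The smallest p-values there were those of AkhR at 0.56 (SE 0.14), Akh at -0.32 (SE 0.11) and ImpL2, which encodes a protein that binds insulin-like peptides, at 0.79 (SE 0.31). Ilp2, an insulin-like peptide gene of the brain, stood at 0.06 (SE 0.17) in whole fly. Of the 8 genes called in whole fly among maltases, sugar sensing and hormone signalling, 0 passed without any 1 of 5 arrays, and 8 passed without glucose replicate 2. Calls over all probe sets moved the same way, from 584 to between 0 and 2 in those 5 fits and to 1563 without glucose replicate 2. Beside these 8 genes stand the eye, muscle, ovary and egg markers that were called in the same comparison.

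Genes whose pattern was most like each member were sought among 8212 single-gene probe sets of above-median mean signal, by Pearson's r over the 12 arrays. For Amyrel the closest were Osi21 (r 0.950), the metallothionein gene MtnD (r 0.935), CG43843, CG9547 and CG17896 (r 0.930). For tobi they were the maltase gene Mal-A7 (r 0.940), 2 probe sets of CG34040 (r 0.935 and 0.930), CG14957 and CG17036. The arrays of these correlations share the tissue contrast. After each tissue mean was subtracted, the closest to Amyrel were CG11241 (r 0.891), MtnD (r 0.878), Atg6, rdgB and CG11737, and those to tobi were CG15643 (r 0.880), Nf-YB, CG1647, Rhau and Cdk8 (r 0.852). MtnD thus stood among the closest 5 to Amyrel by both measures, with a diet difference of -1.18 in midgut and -0.69 in whole fly. Amyrel and tobi themselves correlated at 0.838 over the 12 arrays and at 0.544 without the tissue means. Mal-A7 had diet differences of -0.55 in midgut and -0.48 in whole fly, beside -0.82 and -0.94 for tobi. The 5 genes closest to tobi without the tissue means had differences of -0.18 to -0.08 in midgut and -0.53 to -0.08 in whole fly. Those closest to Amyrel by that measure, MtnD aside, had -0.56 to -0.14 in midgut and -0.10 to -0.04 in whole fly.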

How the data were processed

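Each of 18952 probe sets has 1 deposited log2 signal on each of 12 arrays, made by the authors with Affymetrix Expression Console, per the submitters' processing notes. Its version was not given in the sources used here, nor were the summarisation step or any joint normalization of the tissues. That the scale is log2 was inferred from its span, 1.44 to 14.1. RNA was Trizol-extracted and 100 ng made into biotin-labelled cRNA, per the labels' protocols. After 183 control probe sets were left out, 18769 were tested. The platform annotation gives 13647 of them 1 symbol, 402 several (not named) and 4720 none. A RefSeq gene table changed 0 symbols, and its coordinates and sequences were not used here, so the planned description of proteins and promoters was not made.

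Differences were tested two-sided by lmFit and eBayes of limma 3.58.1 (R 4.3.3), with Benjamini-Hochberg adjustment over all tested probe sets and a call at an adjusted p under 0.05. Each diet effect used the 6 arrays of its tissue, and the other contrasts used all 12 with 4 group means. Single values were tested by exact permutation of diet within tissue. The fits were tested on simulated data with independent arrays, which leaves out the shared deviations of same-numbered midgut arrays. Precision is limited by the number of arrays.

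The replicate numbers come from the sample titles, which do not say what a number shares. Deviations from group means correlated between same-numbered arrays at 0.392, 0.313 and 0.357 in midgut, all above 0.1, and at 0.198, 0.306 and -0.00850 in whole fly. The numbers were therefore taken to pair the samples in midgut only. Midgut calls are those of the main fit, which ignores that pairing, unless the block is named.

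Members and gene lists were chosen with earlier results of these data known. The text names the members, up to 3 genes by smallest p of a described list, and the 5 probe sets most like each member by 2 measures. Mal-B1, Mal-A7 and Ilp2 were added after their values were seen. The genes orb, Marf1, Vm26Aa, LManIV, beta-Man, MtnD, Fbp1, Fbp2, Mtp and Desat1 are named as they bear on a result. A list is described on 1 probe set per gene, that with the highest mean. Alternatives were a filter on the dimmest 40%, trend and robust prior, quantile normalization, median centring, array weights, the replicate block, 12 arrays in the fit and leaving out each array.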

Additional observations from a re-analysis of the deposited data

How the results depend on the processing

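For Amyrel in midgut the difference was -1.56 and passed with a trend and robust prior (limma adjusted p 0.0342), the replicate block (0.0137) and 12 arrays in the fit (0.0234). Its difference of diet effects, -1.11, passed with the replicate block in both tissues. Left-out arrays gave -1.78 to -1.38 (Amyrel, midgut), -1.04 to -0.53 (tobi, midgut), -0.59 to -0.29 (Amyrel, whole fly), -1.50 to -0.62 (tobi, whole fly), -1.34 to -0.94 and -0.20 to 0.68 (Amyrel and tobi, difference of diet effects), and -1.11 to -0.91 and -1.16 to -0.72 (mean diet effect). Without single arrays the tobi difference of diet effects turned to -0.02, -0.01, -0.11, -0.20, -0.09 and -0.09, on either side of 0 within its SE. No other member result changed direction in 206 refits. The cause of these changes was not tested. Counts of called probe sets moved more. In midgut 1 was called, with 10 under the trend prior, 24 with the replicate block, 6 with 12 arrays, 0 without both arrays numbered 1 (781 at an unadjusted p under 0.05) and 0 without any 1 array (860 to 2097 unadjusted). In whole fly 584 were called, with 1281 under array weights, 1711 with the replicate block, 1234 with 12 arrays, 1563 without glucose replicate 2 and 0 to 2 without any other 1 array (2831 to 3992 unadjusted). For the difference of diet effects 8 were called (7 higher), with 0 without the dimmest 40% (2255 unadjusted), 0 under the trend prior (2697), 21 under quantile normalization (13 higher), 24 under centring, 47 under array weights (31 higher), 749 with the replicate block, 0 with the midgut replicate block (3191) and 0 to 361 without 1 array. For the mean diet effect 131 were called, with 306 under quantile normalization, 361 under array weights, 888 with the replicate block, 274 with the midgut replicate block and 8 to 572 without 1 array. For midgut against whole fly centring gave 16043 calls in place of 10411 on unmodified food and 15605 in place of 9951 on glucose, and left-out arrays gave 9730 to 10450 and 9236 to 9961. The replicate block changed no other call of a member. The midgut block, the fit and permutation test without both arrays numbered 1 and the permutation within midgut pairs were chosen after seeing the data. Averaging a gene's probe sets could change only lists with several probe sets for a gene, those of hormone signalling (1 gene) and of ovary and egg markers (2 genes), and their diet medians moved by less than their spread. Amyrel in whole fly lies near the array median, and no detection call is given.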
